A study of Mus musculus with 6 samples.

Results

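The receptors through which gut hormones, glucagon, PACAP, and lipids act on islet cells were followed with a pair of the cAMP-producing cyclases behind them. These are 9 of the 32285 genes in the files, taken by symbol: the incretin and glucagon receptors *Glp1r*, *Gipr*, and *Gcgr*, the PACAP receptor *Adcyap1r1*, the fatty acid receptors *Ffar1* and *Ffar3*, the lipid receptor *Gpr119*, and the adenylyl cyclases *Adcy5* and *Adcy8*. Single-cell RNA-Seq of isolated islets had been performed on 3 WT and 3 β14-3-3ζ–KO mice of the C57/BL6 strain, aged 12 to 14 weeks, with 1 library per mouse. In the KO mice, Ins1-CreThor, a Cre expressed from the *Ins1* locus and so in β cells, deleted exon 4 of *Ywhaz*, the gene of the scaffold protein 14-3-3ζ, between loxP sites. Their WT littermates were Cre carriers as well, so the Cre allele was common to all 6 mice.

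Cells were grouped by the hormone that made up most of the UMIs (unique molecular identifiers, 1 per captured RNA molecule) of *Ins1*, *Ins2*, *Gcg*, *Sst*, and *Ppy*. Of 43445 barcodes, 6783 entered a class, 5242 of them β, 751 α, 490 δ, and 300 *Ppy* cells. The smallest group was 23 *Ppy* cells in WT library 1. Libraries held 74083947 to 98294915 UMIs, and 7 barcode sequences of class cells occurred in more than 1 library. All 9 β cell markers, 5 of 6 α cell markers, all 4 δ cell markers, and both *Ppy* cell markers were highest in their own class. The hormone genes *Ins1*, *Ins2*, *Gcg*, *Sst*, and *Ppy* are among these markers, and their place was fixed by the grouping. *Pyy* was thus the only other *Ppy* cell marker. *Ywhaz* was found in 89.7% to 94.0% of WT β cells and in 37.5% to 48.2% of KO β cells, and the 1754 KO β cells with a *Ywhaz* UMI, of 4068, were left out of what follows unless stated. In *Ppy* cells, *Ywhaz* ran at 66.1 to 85.2 CPM without TMM factors in KO libraries and 106 to 116 in WT libraries, without overlap. This difference did not pass the test between genotypes described below. With TMM factors, the genotypes did not overlap for 10.9% of the 9605 genes tested in *Ppy* cells.

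GLP-1 and GIP are released by the gut after a meal, and their receptors on β cells couple to Gs, raise cAMP, and increase insulin secretion when glucose is high. Glucagon and PACAP act through receptors of the same family, and GPR119, a receptor of lipid amides and lysophospholipids, also signals through Gs. FFAR1 (GPR40) answers long-chain fatty acids through Gq, whereas FFAR3 (GPR41) answers short-chain fatty acids through Gi. ADCY5 and ADCY8 convert ATP into cAMP, and ADCY8 is stimulated by calcium and calmodulin.

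On the mouse build GRCm38 (GENCODE vM21 gene models, matched by gene identifier), *Ffar3* lies at chr7:30854330-30856178 and *Ffar1* at chr7:30857390-30861564, both on the minus strand and 1211 bases apart. *Gipr* lies at chr7:19156061-19166127, *Glp1r* at chr17:30901817-30940791, *Gcgr* at chr11:120530699-120538986, *Adcyap1r1* at chr6:55451978-55501451, *Gpr119* at chrX:48667979-48674478, *Adcy5* at chr16:35154877-35305738, and *Adcy8* at chr15:64697084-64922296. Of the 9 gene models, 1 (*Adcy5*) overlapped another gene on its own strand. RefSeq promoter sequences (GRCm38.p6) were found for 7 of the 9, and *Gipr* and *Adcy8* were not among them. Sequences upstream of the gene models of *Glp1r* (chr17:30901617-30901816, plus strand), *Ffar1* (chr7:30861565-30861720, minus strand), and *Ffar3* (chr7:30856179-30856428, minus strand), which were highest in β cells, and of *Gpr119* (chrX:48674479-48674728, minus strand), which was highest in α cells, are given for comparison, with matches to the searched motifs in capitals.
Glp1r: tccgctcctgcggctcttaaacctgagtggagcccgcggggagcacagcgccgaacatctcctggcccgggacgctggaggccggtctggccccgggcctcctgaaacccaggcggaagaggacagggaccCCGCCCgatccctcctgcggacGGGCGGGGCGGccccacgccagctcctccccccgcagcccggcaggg
Ffar1: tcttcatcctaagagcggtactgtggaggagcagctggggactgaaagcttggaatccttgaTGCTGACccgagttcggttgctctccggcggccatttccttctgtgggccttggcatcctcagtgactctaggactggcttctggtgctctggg
Ffar3: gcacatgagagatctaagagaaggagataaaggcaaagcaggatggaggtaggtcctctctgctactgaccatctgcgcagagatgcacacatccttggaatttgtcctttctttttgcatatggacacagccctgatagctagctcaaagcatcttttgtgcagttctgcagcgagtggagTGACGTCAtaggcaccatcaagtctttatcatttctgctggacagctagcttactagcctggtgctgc
Gpr119: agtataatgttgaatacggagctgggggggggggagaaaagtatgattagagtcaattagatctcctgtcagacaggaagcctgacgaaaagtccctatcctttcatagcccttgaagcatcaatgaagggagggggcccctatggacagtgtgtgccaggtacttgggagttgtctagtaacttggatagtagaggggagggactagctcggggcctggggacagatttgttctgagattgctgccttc
The sequences run upstream for at most 250 bases, leaving out any base in an annotated exon of the same gene, and 5 motifs were searched on both strands. Each sequence printed held matches to at most 1 of them. TGCTGAC, the core of the element bound by Maf factors, occurred in *Ffar1* and in 3.81% of the 32851 promoters in the table, each read over 250 bases. TGACGTCA, the cAMP response element, occurred in *Ffar3* and in 1.55%. GGGCGG, the GC box, occurred in *Glp1r*, *Gcgr*, *Adcyap1r1*, and *Adcy5* and in 32.7%. TAATTA, a homeodomain core, and TATAAA, the TATA box, occurred in none of the 7 and in 4.84% and 12.4%. These are matches of letters, and binding was not measured.

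UMI counts were summed per library and class, and levels are given as CPM after TMM normalization over the 24 sums (TMM CPM, mean ± SD of 6 libraries). The 3′ assay does not allow levels of different genes to be ranked, so comparisons were made within a gene. For differences between classes, the library was a block in the quasi-likelihood test of edgeR, and p-values were adjusted over 10919 genes by the method of Benjamini and Hochberg. Calls needed an adjusted p under 0.05 together with a log2 change of more than 0.1 in either direction. Of the 9 members, 7 passed the filter on low counts, and *Adcyap1r1* and *Adcy5* did not. *Ffar3* passed only through β cells and *Adcy8* only through δ cells, so their differences from these classes are a description, and the counts of members called that follow include them. Of these 7, 6 were called between β and α cells (60.1% of all genes were), 7 between β and δ cells (60.3%), 6 between β and *Ppy* cells (54.6%), 6 between α and δ cells (43%), 2 between α and *Ppy* cells (22.8%), and 4 between δ and *Ppy* cells (23.9%). By direction, 5 of the 7 were higher and 1 lower in β than α cells (34.9% and 25.2% of all genes), 6 were higher and 1 lower than in δ cells (37% and 23.3%), and 5 were higher and 1 lower than in *Ppy* cells (34.2% and 20.4%). α cells had 3 higher and 3 lower than δ cells (22.8% and 20.2%) and 1 higher and 1 lower than *Ppy* cells (12.5% and 10.3%), and δ cells had 1 higher and 3 lower than *Ppy* cells (12.9% and 11%). The median log2 difference over all genes was 0.055 between β and α cells and 0.10 between β and δ cells, and moved to −0.40 and −0.56 when library totals were used without TMM factors. The split of calls moved with it, from 3810 genes higher and 2749 lower in β than α cells to 1328 higher and 6757 lower, and from 4036 higher and 2546 lower in β than δ cells to 778 higher and 7778 lower. No called difference of a member changed sign under that scaling.

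**Figure D1:**
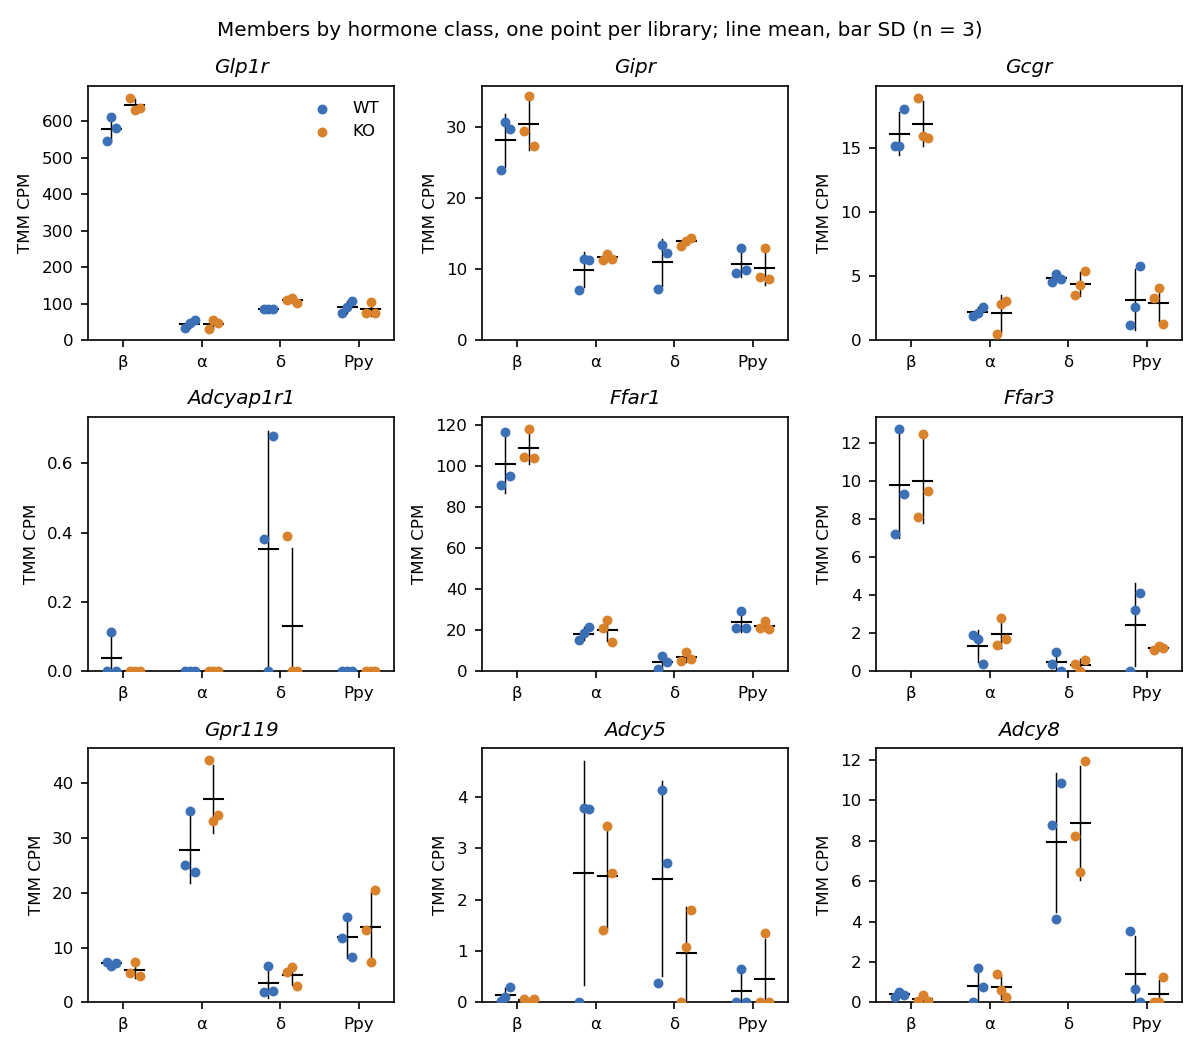
Level of each of the 9 genes (y axis, TMM CPM, linear from 0, scaled per gene) in β, α, δ, and *Ppy* cells (x axis), 1 point per library, with WT in blue and KO in orange; lines are means and bars SD of 3 libraries. *Glp1r*, *Gipr*, *Gcgr*, *Ffar1*, and *Ffar3* lie highest in β cells, *Gpr119* in α cells at 23.7 to 44.3, and *Adcy8* in δ cells at 4.13 to 12.0.

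*Glp1r*, the GLP-1 receptor, was strongly enriched in β cells. Its lowest, median, and highest β cell levels over 6 libraries were 546, 620, and 665 TMM CPM, and the mean was 611 ± 42.4. The corresponding values were 85.5, 93.7, and 116 in δ cells, 74.2, 83.2, and 109 in *Ppy* cells, and 30.6, 47.1, and 57.0 in α cells. All 6 β cell values thus lay above every value of the other classes, and all 6 δ cell values above every α cell value. The log2 fold change was 3.75 ± 0.0965 (SE) for β against α cells, 2.64 ± 0.0906 for β against δ cells, and 2.79 ± 0.0961 for β against *Ppy* cells (adjusted p of 5.53e-25, 1.41e-21, and 3.42e-21 by edgeR). The receptor was 2.15-fold higher in δ than α cells (adjusted p = 4.11e-10 by edgeR). The δ and *Ppy* cell levels, neighbours in the order, differed by 0.15 on the log2 scale (95% interval −0.072 to 0.38, adjusted p = 0.360 by edgeR), although the difference was called at 0.59 when the leading hormone had to make up 66.7% of the hormone UMIs. In single cells, β cells held a median of 13 *Glp1r* UMIs, and 88.7% of them held 3 or more, against 8.92% of α, 36.3% of δ, and 21.3% of *Ppy* cells.

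*Gipr*, the receptor of GIP, was also highest in β cells but over a narrower range. Its β cell levels ran from 23.9 over a median of 29.5 to 34.3 TMM CPM. They ran from 7.25 over 13.4 to 14.4 in δ cells, from 7.06 over 11.3 to 12.2 in α cells, and from 8.67 over 9.66 to 13.0 in *Ppy* cells. β cells did not overlap the other classes, which overlapped one another. *Gipr* was 2.68-fold higher in β than α cells, 2.37-fold higher than in δ cells, and 2.79-fold higher than in *Ppy* cells (adjusted p of 6.51e-15, 1.84e-12, and 3.24e-12 by edgeR). None of the 3 differences among α, δ, and *Ppy* cells was called, the largest being 0.23 on the log2 scale between δ and *Ppy* cells (95% interval −0.11 to 0.57).

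*Gcgr*, the glucagon receptor, was counted far less often. Its levels were 15.1, 15.8, and 18.9 TMM CPM in β cells, 3.52, 4.67, and 5.39 in δ cells, 1.18, 2.96, and 5.76 in *Ppy* cells, and 0.471, 2.37, and 3.08 in α cells. The β cell level was 7.09-fold that of α cells, 3.57-fold that of δ cells, and 5.40-fold that of *Ppy* cells (adjusted p of 2.12e-14, 2.24e-10, and 1.83e-10 by edgeR). δ cells exceeded α cells by 0.99 on the log2 scale (SE 0.309, adjusted p = 0.00975 by edgeR), and *Ppy* cells were not separated from either. The non-β levels rest on 36 UMIs in α, 51 in δ, and 23 in *Ppy* cells.

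*Adcyap1r1*, which encodes the PAC1 receptor of PACAP, was hardly counted. It gave 3 UMIs in 2 of 5242 β cells and 3 UMIs in 3 of 490 δ cells. It was not detected in 751 α cells, which allows a share of up to 0.399%, or in 300 *Ppy* cells, which allows up to 1%. These limits hold for cells with a captured UMI, not for cells expressing the gene. Over all 43445 barcodes it gave 76 UMIs, so no difference between classes was detectable at this depth.

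*Ffar1*, the long-chain fatty acid receptor, followed *Glp1r* in β cells but not in δ cells. Its levels were 90.7, 104, and 118 TMM CPM in β cells, 20.4, 21.3, and 29.2 in *Ppy* cells, 14.5, 19.9, and 24.9 in α cells, and 1.15, 5.54, and 9.68 in δ cells. δ cells were lowest in all 6 libraries. *Ffar1* was 5.45-fold higher in β than α cells, 4.58-fold higher than in *Ppy* cells, and 20.1-fold higher than in δ cells (adjusted p of 9.25e-21, 2.51e-17, and 3.50e-22 by edgeR). It was 3.68-fold higher in α than δ cells and 4.39-fold higher in *Ppy* than δ cells (adjusted p of 1.51e-09 and 1.89e-09 by edgeR), while α and *Ppy* cells differed by −0.25 on the log2 scale (95% interval −0.56 to 0.058).

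*Ffar3*, its neighbour on chromosome 7 and the short-chain fatty acid receptor, was likewise highest in β cells and lowest in δ cells, at lower counts. Its α and *Ppy* cell levels had no settled order. Its levels were 7.25, 9.42, and 12.7 TMM CPM in β cells, and no other class exceeded 4.11. The log2 fold change was 2.59 ± 0.240 (SE) for β against α cells, 4.35 ± 0.371 for β against δ cells, and 2.37 ± 0.301 for β against *Ppy* cells. δ cells held 5 UMIs in all and were lower than α cells by 1.76 and lower than *Ppy* cells by 1.98 (adjusted p of 0.0193 and 0.0287 by edgeR). The first of these calls was lost without KO library 2 (1.42), and the second without WT library 2 (−2.14) or WT library 3 (−1.42) and with library totals alone (−1.51).

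*Gpr119*, the lipid receptor coupled to Gs, was the only receptor among the tested members that was highest in α cells. Its levels were 23.7, 33.6, and 44.3 TMM CPM in α cells, 7.47, 12.6, and 20.4 in *Ppy* cells, 4.78, 6.96, and 7.43 in β cells, and 1.91, 4.24, and 6.72 in δ cells. No α cell value overlapped another class. The α cell level was 4.93-fold that of β cells, 7.94-fold that of δ cells, and 2.49-fold that of *Ppy* cells (adjusted p of 1.83e-14, 1.93e-11, and 3.07e-05 by edgeR). *Ppy* cells were 1.98-fold above β cells (adjusted p = 0.000787 by edgeR). The difference of 0.69 between β and δ cells (adjusted p = 0.0406 by edgeR) was the least stable of the called ones, as the call was lost under 7 alternatives, among them without WT library 1 (0.43) or WT library 3 (0.51), and the value was 0.022 with library totals alone. Of α cells, 23.2% held 1, 10.3% held 2, and 6.52% held 3 or more *Gpr119* UMIs. The gene is X-linked, and all 6 libraries were alike in sex-linked transcripts. With all KO β cells kept, *Ddx3y* stood at 60.5 to 75.5 and *Xist* at 0.122 to 0.374 CPM (without TMM factors) in β cells.

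The cyclases were sparse. *Adcy8*, the calcium-stimulated cyclase, was highest in δ cells, at 4.13, 8.50, and 12.0 TMM CPM, and did not exceed 0.537 in β, 1.69 in α, or 3.55 in *Ppy* cells. It was found in 16.1% of δ cells (94 UMIs) and 0.706% of β cells (42 UMIs). The δ cell level exceeded that of β cells by 4.76 ± 0.388 (SE), that of α cells by 3.40 ± 0.499, and that of *Ppy* cells by 3.38 ± 0.611 on the log2 scale. *Adcy5* gave 42 UMIs in 5.06% of α cells, 17 UMIs in 3.06% of δ cells, 16 UMIs in 0.286% of β cells, and 3 UMIs in *Ppy* cells. α cells were above β cells in 5 of 6 libraries, WT library 1 having no *Adcy5* UMI in α cells (2-sided exact sign-flip permutation test on log2(CPM + 1), p = 0.0625, the smallest possible p being 0.03125).

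Because *Glp1r* was so abundant in β cells, UMIs outside β cells were set against free RNA. Leukocyte (1891) and endothelial (1067) barcodes, which are not endocrine cells, served as the background. As counted and pooled over libraries, *Glp1r* was found in 40.5% of leukocyte and 41.8% of endothelial barcodes, against 50.3% of α cells. Library median depths were 5479 to 12713, 9024 to 13799, and 12650 to 25402 UMIs, in that order. After thinning each cell to 5000 UMIs, for which 590 leukocyte and 84 endothelial barcodes were too shallow, *Glp1r* was found in 20.4% of α, 26.0% of *Ppy*, 41.8% of δ, and 80.9% of β cells, against 27.7% of leukocyte and 21.8% of endothelial barcodes. The *Glp1r* share of α and *Ppy* cells was thus within or below the background, and that of δ cells was above it. The thinned *Ffar1* share was 10.7% in α, 7.67% in *Ppy*, and 3.47% in δ cells against 9.38% in leukocyte and 3.66% in endothelial barcodes. For *Gipr*, the shares of 5.33% in α, 6.33% in δ, and 2.67% in *Ppy* cells exceeded 1.15% and 1.02% in the reference barcodes. *Gpr119* was found in 17.3% of α, 4.67% of *Ppy*, 2.86% of β, and 2.45% of δ cells after thinning, against 0.231% and 0.305%. The thinned *Ffar3* share was 0.932% in α, 0.667% in *Ppy*, and 0% in δ cells, against 0.384% in leukocyte and 0.610% in endothelial barcodes.

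UMIs were also set against those expected from the *Ins2* UMIs of a class if each member kept its ratio to *Ins2* in the β cells of the same library. For this ratio all KO β cells were kept. The reference barcodes themselves departed from that ratio, most of all in WT library 1, where leukocyte barcodes were at 3.27 times for *Glp1r* and 9.47 times for *Ffar1*. *Glp1r* ran at 1.30 times that number in leukocyte and 1.52 times in endothelial barcodes. It reached 1.67 times in α (95% Poisson interval 1.55 to 1.79), 1.97 times in *Ppy* (1.83 to 2.13), and 5.17 times in δ cells (4.86 to 5.48). Libraries differed more than these pooled intervals, from 1.26 to 3.32 in α cells and from 1.12 to 3.27 in leukocyte barcodes. In KO library 2, α cells (1.26) were below leukocyte (1.40) and endothelial (1.33) barcodes, so α cells were not separated from the background, whereas δ cells were above both in all 6 libraries. *Gipr* was at 1.05 and 1.21 times in the reference barcodes, and at 7.91 times in α, 13.2 times in δ, and 4.71 times in *Ppy* cells. *Gcgr* was at 1.18 and 1.19 times in the reference barcodes and at 8.96 times in δ (6.67 to 11.8), 3.01 times in α (2.11 to 4.17), and 2.47 times in *Ppy* cells (1.56 to 3.70). *Ffar1* was at 2.19 times in leukocyte and 1.18 times in endothelial barcodes, 3.92 times in α, 2.88 times in *Ppy*, and 1.57 times in δ cells. Its α cell ratio exceeded both references in 5 of 6 libraries, the exception being WT library 1 (9.40 against 9.47 in leukocyte barcodes). *Gpr119* was at 111 times in α cells. These intervals and the limits on shares cover counting error only. The part of free RNA in the differences between classes was not otherwise tested.

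**Figure D2:**
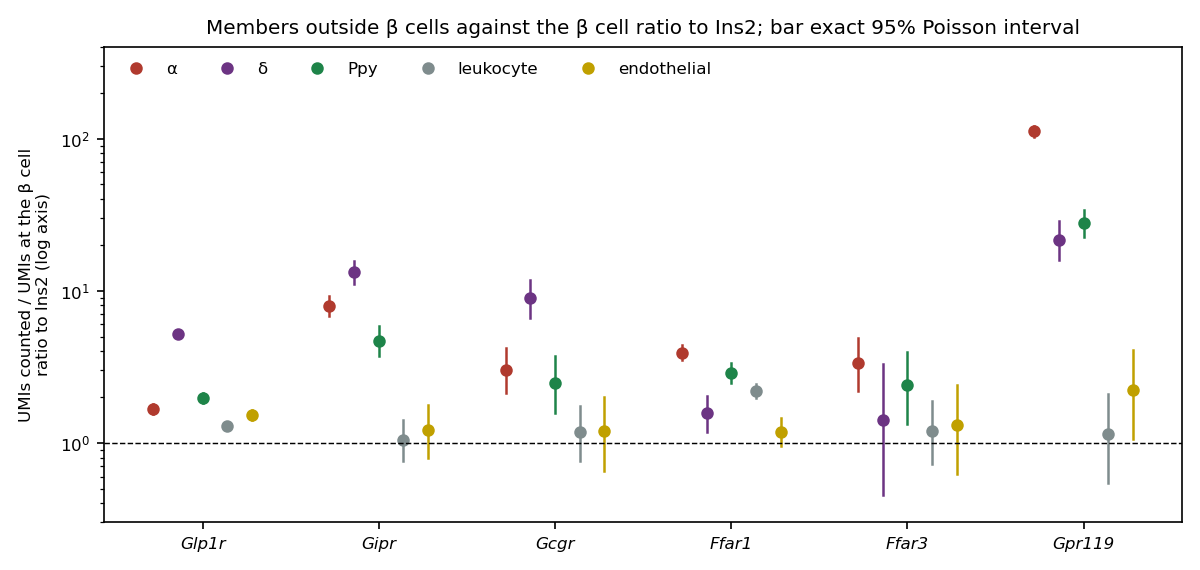
UMIs counted over the UMIs expected at the β cell ratio to *Ins2* (y axis, log scale) for 6 receptors (x axis) in α, δ, and *Ppy* cells and in leukocyte and endothelial barcodes, pooled over 6 libraries; bars are exact 95% Poisson intervals and the dashed line is a ratio of 1. *Glp1r* in α cells (1.67) lies close to the reference barcodes (1.30 and 1.52), whereas *Gpr119* in α cells (111) and *Gipr* in δ cells (13.2) lie far above them.

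The genes with profiles most like each member, by Pearson's r of log2(TMM CPM + 1) over the 24 sums, are given as a description, since sums of a class share their cells' depth and composition. For *Glp1r* they were *Gng12* (r = 0.984), *Zdhhc2* (0.980), and *Itpkb* (0.980). For *Ffar1* the closest was *Glrx* (0.970), for *Gipr* *Cdhr1* (0.949), for *Gcgr* *A530058N18Rik* (0.946), and for *Ffar3* *Arhgdig* (0.939). *Gpr119* ran closest to *Ttr* (0.959), the transthyretin gene used here as an α cell marker, and *Adcy8* to *Vav3* (0.948).

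A list of 124 other genes of G protein signaling, made up of receptors, ligands, G proteins, cyclases, phosphodiesterases, cAMP and Gq effectors, and desensitization and accessory genes, was set beside the members. Of its 88 tested genes, 43 were higher and 28 lower in β than α cells, with a median log2 difference of 0.24 against 0.055 for all genes (34.9% of all genes were higher and 25.2% lower). Against δ cells, 38 were higher and 28 lower, with a median of 0.013 against 0.10 (37% and 23.3%). Among the genes highest in β against α cells were *Pcsk1*, the prohormone convertase that processes proinsulin, at 249 ± 21.4 against 15.2 ± 4.30 TMM CPM, the adrenergic receptor gene *Adra2a*, which couples to Gi, at 56.3 ± 5.52 against 5.27 ± 1.29, and the purinergic receptor gene *P2ry1* at 21.5 ± 2.51 against 1.88 ± 0.647. The galanin receptor gene *Galr1* (18.7 ± 3.22 against 1.82 ± 1.49) and the adenosine receptor gene *Adora2b* (10.1 ± 0.842 against 0.824 ± 0.710) completed the 5. Besides *Gcg* itself, α cells were highest against β cells in *Adrb1*, the β1-adrenergic receptor coupled to Gs (15.7 ± 3.34 against 0.166 ± 0.121), *Avpr1b*, a vasopressin receptor (50.8 ± 12.1 against 0.752 ± 0.417), *Sstr2*, a somatostatin receptor (8.59 ± 1.64 against 0.157 ± 0.0964), and *Hcar1*, the lactate receptor (9.55 ± 1.82 against 0.455 ± 0.196).

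δ cells carried another set of receptors and effectors. *Ghsr*, the ghrelin receptor and itself a δ cell marker, stood at 23.6 ± 4.12 TMM CPM against 0.689 ± 0.616 in β cells. *Ffar4*, a long-chain fatty acid receptor, stood at 43.5 ± 6.85 in δ and 23.6 ± 4.32 in α cells against 2.54 ± 1.27 in β cells, the reverse of the order of *Ffar1*. *Rapgef3*, which encodes the cAMP-activated exchange factor EPAC1, stood at 9.80 ± 3.10 against 0.484 ± 0.316, *Ramp1* at 46.7 ± 7.29 against 6.53 ± 1.07, and the IP3 receptor gene *Itpr1* at 315 ± 46.3 against 53.8 ± 11.2. In the other direction, besides *Galr1*, *Adora2b*, and *Pcsk1*, *Itpr2* (34.7 ± 9.30 against 5.26 ± 3.87) and the receptor kinase gene *Grk5* (mean 24.4 against 3.50) were highest in β cells. All of these differences were called by edgeR. Several of the listed genes, among them *Adrb1*, *Sstr2*, *Adora2b*, and *Ghsr*, passed the filter on low counts only through the class where they were highest. Their differences from the other classes are a description, and the counts of listed genes called include them.

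The effect of 14-3-3ζ deletion on the members was then examined, first in β cells, where *Ywhaz* is deleted. Of the 9 members, 6 had a UMI in more than 15% of the β cells of either genotype and were tested, and 0 were called by edgeR's quasi-likelihood test (0.0105% of 9548 genes, that is *Ywhaz* alone, which was emptied in KO by leaving out the cells that held it). An unadjusted p under 0.05 was reached by 466 genes, and DESeq2 called 12. *Glp1r* read 546, 611, and 581 TMM CPM in WT and 665, 630, and 635 in KO β cells. The KO libraries were all above the WT libraries. The genotypes likewise did not overlap for 10.9% of all tested genes. The difference was 0.15 on the log2 scale (SE 0.0791, adjusted p = 0.905 by edgeR), with a 95% interval of 0.981- to 1.26-fold. *Gipr*, *Gcgr*, and *Ffar1* differed by 0.11, 0.066, and 0.11, with 95% intervals that reached at most 1.30-, 1.25-, and 1.28-fold, and *Ffar3* by 0.032 (interval 0.720- to 1.45-fold). With the replicate number as a block, 23 genes were called in β cells, 1 higher and 22 lower, and no member was among them (adjusted p of 0.462 to 0.898 by edgeR).

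*Gpr119*, at lower counts, had a lower mean in KO β cells. It read 7.43, 6.71, and 7.20 TMM CPM in WT and 5.43, 7.31, and 4.78 in KO β cells. KO library 2 lay among the WT libraries, so the genotypes overlapped. KO lay at −0.30 relative to WT on the log2 scale (SE 0.154, adjusted p = 0.905 by edgeR). The share of β cells with a *Gpr119* UMI was 16.6% ± 2.29 in WT and 10.2% ± 0.535 in KO (SD, n = 3), without overlap (2-sided exact permutation test, p = 0.1, the smallest that 3 against 3 allows). KO β cells were shallower, at library medians of 19222.5 to 29629 UMIs against 28791 to 42162.5. Leaving out cells with a *Ywhaz* UMI in KO alone widened this gap, as KO medians were 20863 to 32755 with all KO β cells kept. After thinning to 5000 UMIs the shares were 3.27% ± 0.391 and 2.26% ± 0.724, still without overlap, and with all KO β cells kept they were 3.27% ± 0.391 and 2.38% ± 0.652. The shares of *Gipr* (49.7% ± 2.63 in WT and 42.4% ± 5.26 in KO) and *Adcy8* (1.04% ± 0.303 and 0.240% ± 0.165) also did not overlap as counted, 3 of 36 gene and class pairs in all. Over all genes with a UMI in the class, 11.9% of gene and class pairs did not overlap as counted, so the count of members over all classes was not above the background. All 3 member pairs were in β cells, however, where 19.4% of genes did not overlap. Within β cells the share of members without overlap was thus above that of all genes, and this excess was not tested. After thinning, 1 of 36 member pairs did not overlap, against 7.52% of all pairs. *Gipr* and *Adcy8* overlapped after thinning, at 11.8% ± 2.05 and 11.4% ± 0.123 for *Gipr* and at 0.130% ± 0.152 and 0.0717% ± 0.124 for *Adcy8*.

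**Figure D3:**
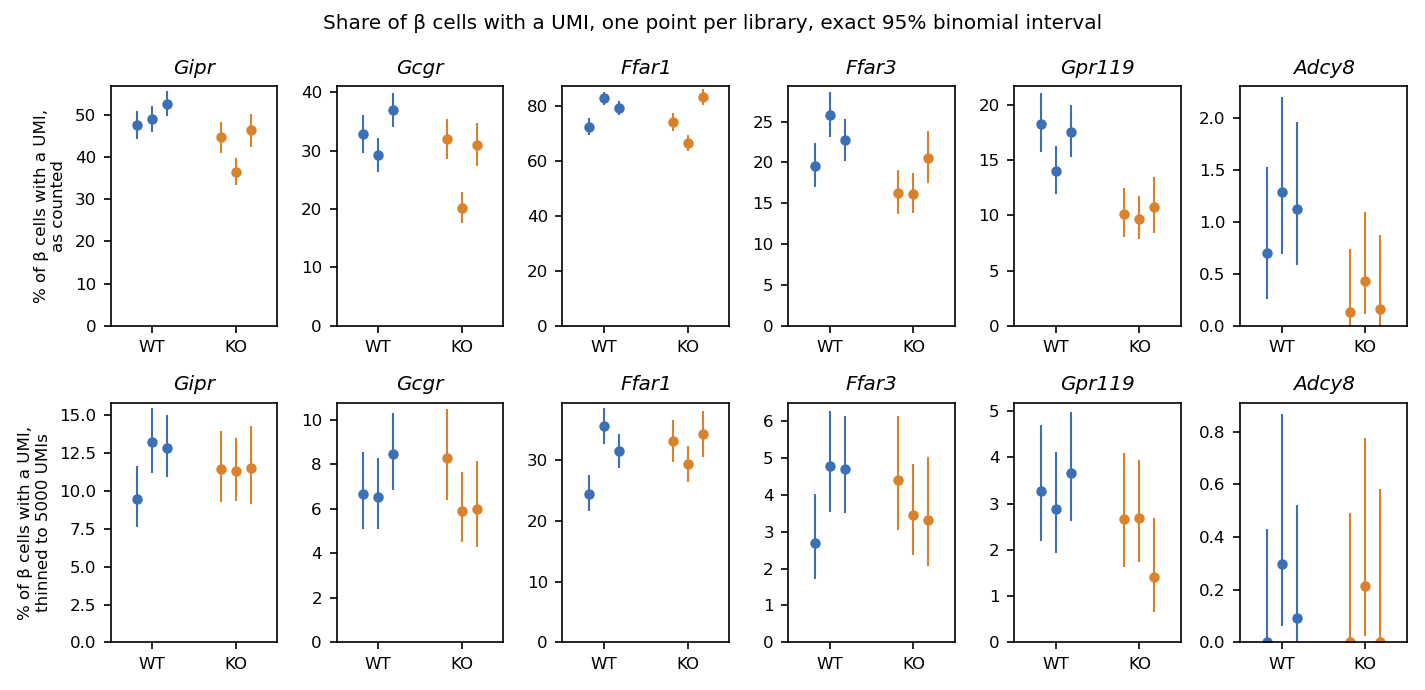
Share of β cells with a UMI of 6 members (y axis, percent, linear from 0) in the 3 WT and 3 KO libraries (x axis), as counted in the upper row and after thinning each cell to 5000 UMIs in the lower row; bars are exact 95% binomial intervals. *Gpr119* is lower in KO in both rows (10.2% against 16.6% and 2.26% against 3.27%), while *Gipr* overlaps after thinning (11.4% against 11.8%).

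In the other classes, 0 members were called either (0% of 9016 genes in α, 9344 in δ, and 9605 in *Ppy* cells). An unadjusted p under 0.05 by edgeR was passed by 355, 361, and 521 genes, and DESeq2 called 0 in each. The lower *Ywhaz* of KO *Ppy* cells was not called by edgeR either. Of the 9 members, 4 were tested in α, 3 in δ, and 4 in *Ppy* cells. The δ cell level of *Glp1r* was 86.3, 86.3, and 85.5 TMM CPM in WT and 112, 116, and 101 in KO, again without overlap (8.9% of tested genes did not overlap in δ cells). This difference of 0.34 (SE 0.108, 95% interval 0.12 to 0.57) had an unadjusted p of 0.00476 and an adjusted p of 1.00 by edgeR. *Gpr119* in α cells read 25.0, 35.0, and 23.7 in WT and 44.3, 33.0, and 34.1 in KO. WT library 2 lay above KO libraries 2 and 3, so the genotypes overlapped (9.72% of tested genes did not in α cells). The difference was 0.38 (SE 0.176, adjusted p = 1.00 by edgeR). The remaining members differed by −0.15 to 0.39 in the 3 classes, with adjusted p of 0.957 to 1.00 by edgeR.

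Whether the KO effect differed between classes was tested by the class by KO term, over 10919 genes. No member was called (0.0275% of genes in α, 0.00916% in δ, and 0.0366% in *Ppy* cells were, each against β cells). The term of *Gpr119* in α against β cells was 0.71 (SE 0.283) with an unadjusted p of 0.0183 and an adjusted p of 0.892 by edgeR, and it was the only one of a member with an unadjusted p under 0.05. None of the 124 listed genes was called between genotypes in any class, with 73 tested in β, 69 in α, 71 in δ, and 70 in *Ppy* cells. Their median log2 fold change was 0.027 in β cells, against 0.00080 for all genes.

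**Figure D4:**
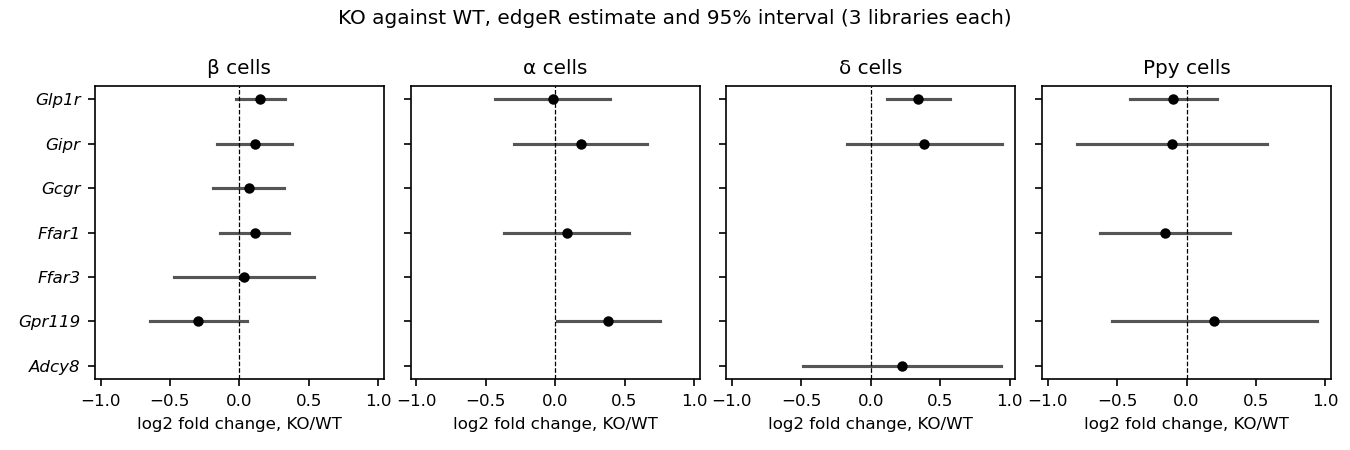
Log2 fold change of KO against WT (x axis) for the members tested in each class (y axis), edgeR estimates (points) with 95% intervals (bars) from 3 libraries per genotype; the dashed line is 0. For each gene tested in β and other cells the interval is narrowest in β cells, where *Glp1r* lies at 0.15 and *Gpr119* at −0.30. *Gpr119* entered the β cell test through WT cells alone. *Glp1r* in δ cells (0.34) and *Gpr119* in α cells (0.38) have intervals above 0 without passing adjustment.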

How the data were processed

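Islets of 6 mice were profiled by droplet single-cell RNA-Seq, 1 library per mouse. The authors deposited UMI counts per gene and barcode, not normalized. Cell Ranger 6.0.2, Seurat, and the mm10 build are named in the submitters' processing notes. Columns of other samples numbered 0. The genes and lists were chosen with earlier results of these data known.

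Barcodes with at least 500 genes, 5000 UMIs, *Chga* at 0.05% of UMIs, at most 10% mitochondrial UMIs, and at most 0.05% of UMIs from a panel of non-endocrine genes were kept. The highest doublet scores (0.8% of barcodes per 1000) were removed with Scrublet as run in scanpy 1.11.5. A class required 50% of the hormone UMIs and 3% of all UMIs (10% for β cells). KO β cells with a *Ywhaz* UMI were removed. The sixth α cell marker is not reported here by name. Leukocyte and endothelial barcodes had at least 1000 UMIs, under 10% hormone UMIs, and 0.2% or 0.1% marker UMIs.

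Counts summed per library and class were fitted with edgeR 4.0.16 (R 4.3.3) by the quasi-likelihood test with TMM factors. Genes tested between genotypes had a UMI in over 15% of the cells of either genotype. Calls required a Benjamini-Hochberg adjusted p under 0.05 and a log2 change of more than 0.1 in either direction. DESeq2 1.42.0 was an alternative. Replicate numbers of WT and KO were shared in the labels, and deviations of same-numbered β cell sums from their group means correlated at 0.551, 0.490, and 0.201, so a fit with the number as a block was also made. The fits were tested on simulated counts. Shares were compared by 2-sided exact permutation tests (scipy 1.17.1).

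All 9 genes were named, with, of the 124 listed signaling genes, any called between genotypes and the 5 called genes of largest change per direction for β against α and β against δ cells, and the most alike genes of each tested member. Alternatives covered cell filters, class limits, normalization, filters on genes, pseudocounts, tools, and leaving out each library. Library totals without TMM factors were added after seeing the data.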

Additional observations from a re-analysis of the deposited data

Results flagged for a closer look

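The receptors and cyclases were also counted in barcodes of leukocyte and endothelial cells, which enter no comparison between genotypes or hormone classes. Each count was set against the UMIs expected if all came from free β cell RNA. The ratio to *Ins2* was that of β cells of the same library, with all KO β cells kept. Above the expected number lay 6 counts, with 95% Poisson intervals that did not include it. *Glp1r* gave 1054 UMIs in leukocyte barcodes (812 expected) and 656 UMIs in endothelial barcodes (431 expected). *Ffar1* gave 329 UMIs in leukocyte barcodes (150 expected). In endothelial barcodes, *Adcy5* gave 47 UMIs (0.147 expected), *Adcyap1r1* gave 7 UMIs in 3 barcodes (0.0306 expected), and *Gpr119* gave 10 UMIs (4.50 expected). The expected numbers leave out free RNA of other cells, such as the α cells, where *Gpr119* was highest. Of the *Adcyap1r1* UMIs, 5 came from 1 barcode of KO library 3, and 2 remained without that library. The Poisson interval takes the UMIs of 1 barcode as independent counts. *Gpr119* had 4 UMIs each in WT library 2 and KO library 3, and without either library (6 against 3.38 or 3.88 expected) the interval included the expected number.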

How the results depend on the processing

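The comparison of genotypes rests on 3 mice each, and *Ppy* cells on as few as 23 cells, so small changes in α, δ, and *Ppy* cells were not detectable at this depth. Of 346 values recomputed for KO against WT, 323 kept their direction and side of the threshold and 23 changed sign. Of 738 between classes, 707 kept both, 12 changed sign, 8 gained a call, and 11 lost it. Of 90 for the difference between classes in the KO effect, 84 kept both and 6 changed sign. The causes of these changes were not tested. No member was called between genotypes under any alternative.

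Genes called between genotypes in β cells (1) numbered 2 with at most 20% mitochondrial UMIs, 12 with DESeq2, 27 with library totals alone, 6 without a filter, and 23 with the replicate block. The count of 0 in α cells became 1 with filterByExpr, 65 without a filter, and 5 with the replicate block. In δ cells it became 1 with the hormone at 66.7%, 13 without a filter, and 6 with the block. In *Ppy* cells it became 1 without Scrublet, 1 with the hormone at 66.7%, 1 with library totals alone, 26 without a filter, and 9 with the block. Same-numbered sums correlated at 0.252, 0.182, and 0.0988 in α cells, 0.161, 0.101, and 0.0410 in δ cells, and 0.0705, 0.108, and 0.0273 in *Ppy* cells, so the numbers were not taken as pairs there. Leaving out 1 library gave 0 to 1 genes in α, 0 to 1 in δ, and 0 to 6 in *Ppy* cells.

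Library totals alone called 4972 genes between α and *Ppy* cells (2493 with TMM) and 7153 between δ and *Ppy* cells (2608). A filterByExpr minimum of 50, which tests fewer genes, called 4025 between β and α, 4014 between β and δ, 3783 between β and *Ppy*, and 3032 between α and δ cells (6559, 6582, 5960, and 4698). For the class by KO term, δ cells gave 14 genes without Scrublet and 8 with at least 10000 UMIs per cell (1), and α cells 9 with at least 10000 UMIs (3). Of the members, *Adcy8* became called between β and α cells with 10000 UMIs (−1.65), DESeq2 (−1.60), library totals alone (−1.82), and no filter (−1.40), and *Glp1r*, *Gipr*, and *Gcgr* between δ and *Ppy* cells with library totals alone (0.61, 0.71, and 1.08). For the class by KO term, leaving out 1 library gave 2 to 28 in α, 1 to 41 in δ, and 2 to 20 in *Ppy* cells. Member shares that did not overlap between genotypes (3 of 36) numbered 1 after thinning, 1 with all KO β cells kept, 5 with at least 10000 UMIs, 5 with the hormone at 66.7%, and 3 to 9 without 1 library. Of all gene and class pairs, 11.9% did not overlap as counted, 7.52% after thinning, 7.63% with all KO β cells kept, 13.1% with at least 10000 UMIs, 11.4% with the hormone at 66.7%, and 16.1% to 30.4% without 1 library.

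Signs of small KO differences turned as follows. *Ffar3* in β cells (0.032) was −0.011 with 20% mitochondrial UMIs, −0.021 with all KO β cells, and −0.011 with library totals alone. *Glp1r* in α cells (−0.016) was 0.077, 0.16, and 0.033 with 20% mitochondrial UMIs, the hormone at 66.7%, and 10000 UMIs. *Ffar1* in α cells (0.084) was −0.0043 with 20% mitochondrial UMIs, *Gipr* in *Ppy* cells (−0.11) was 0.15 with the hormone at 66.7%, and the α cell term of *Ffar1* (−0.024) was 0.062 with all KO β cells. Between α and *Ppy* cells, *Gipr* (0.055) was −0.012 without Scrublet and −0.013 without the panel limit. *Adcy8* (−0.016) was 0.040 with 10000 UMIs, 0.043 without the panel limit, and 0.24 with library totals alone, which also gave 0.021 for *Ffar1* and 0.071 for *Ffar3*.

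Without 1 library, KO differences ran from −0.024 to 0.16 for *Gcgr* and −0.15 to 0.26 for *Ffar3* in β cells, −0.22 to 0.16 for *Glp1r* and −0.13 to 0.31 for *Ffar1* in α cells, and −0.074 to 0.43 for *Adcy8* in δ cells. In *Ppy* cells they ran from −0.29 to 0.048 for *Glp1r*, −0.33 to 0.093 for *Gipr*, −0.25 to 0.059 for *Ffar1*, and −0.31 to 0.53 for *Gpr119*. Between α and *Ppy* cells the ranges were −0.032 to 0.12 for *Gipr*, −0.58 to 0.33 for *Ffar3*, and −0.42 to 0.95 for *Adcy8*. The class by KO term ran from −0.37 to 0.038 for *Glp1r* and −0.16 to 0.16 for *Ffar1* in α cells and −0.10 to 1.09 for *Gpr119* in *Ppy* cells.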

Other observations

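*Adcy5* was counted in 3.47% of the 1067 endothelial barcodes and in 1 of 1891 leukocyte barcodes. It was at 3.19 CPM in endothelial barcodes, and the lowest and highest libraries stood at 1.77 and 4.35. *Adcy8* was not counted in any endothelial barcode and gave 1 UMI in leukocyte barcodes.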
